A study of Saccharomyces cerevisiae with 18 samples.

Results

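The transcriptome of budding yeast without PIH1 was compared with that of wild type in strains whose Rvb1 carried a tag. The comparison used 6 of the 18 poly(A)+ RNA libraries of the series, 3 from the PIH1 deletion and 3 from wild type. Both groups were Saccharomyces cerevisiae By4741 with the Rvb1 tag, and the genotype of the first was Pih1-delta. The labels do not say what the tag was, how it was integrated or which marker replaced PIH1. Cells grew with shaking at 30 °C in YPD, a rich glucose medium, as 5 ml cultures to an optical density of 1.2 to 1.5, and the series states 3 biological replicates per strain. A feature was tested if its normalized read count averaged at least 10 over the 6 libraries, which left 5791 of 7126. The members of the comparison are therefore these 6 libraries and 5791 genes.

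Pih1 and Tah1 join the paired AAA+ ATPases Rvb1 and Rvb2 into the R2TP complex, a partner of the HSP90 chaperone. R2TP is known for the assembly of box C/D small nucleolar ribonucleoproteins, which guide the processing and methylation of ribosomal RNA, of RNA polymerase II, and of the large kinases of the PIKK family. Rvb1 and Rvb2 also work apart from Pih1, in the INO80 and SWR1 chromatin remodellers. All of this is protein assembly, so the values here, which are RNA levels, measure the genes of these complexes and of other pathways and not the complexes themselves.

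Wild type replicate 2 stood apart from its group. Its root mean square distance from the mean of the other libraries of its group was 0.402 log2 units, against 0.154 to 0.304 for the other 17 libraries of the series. The normalized counts summed to 5055406, 5086933 and 5089676 in the PIH1 deletion libraries, and to 5029824, 5412654 and 5013249 in those of wild type. The counts over all genes are given with and without wild type replicate 2, and other values without it are given where stated. A gene is called where the adjusted p of limma, Benjamini-Hochberg over the 5791 genes, is under 0.05. Values are normalized counts, and a difference is that of log2(normalized count + 1), PIH1 deletion minus wild type, followed by its standard error.

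Many transcripts differed by a small amount between the PIH1 deletion and wild type. The replicates of a group share their strain, so the deletion and other differences between the strains cannot be told apart. A total of 2209 genes were called, 38.1% of those tested, of which 1121 were higher (19.4%) and 1088 lower (18.8%) in the PIH1 deletion. Without wild type replicate 2 the count was 2701 (46.6%), with 1372 higher (23.7%) and 1329 lower (22.9%). All 2209 genes kept their sign without that library, and 2026 of them stayed called. The large changes ran mostly downwards, since 18 genes rose by more than 2-fold (0.311%) and 130 fell by more than 2-fold (2.24%). The first count was 37 (0.639%) without wild type replicate 2 and 29 without PIH1 deletion replicate 1, and the second was 164 (2.83%) without wild type replicate 2. The 3 deletion libraries lay above all 3 wild type libraries for 1213 genes (20.9%) and below all 3 for 1270 (21.9%). Genes that were called with and without wild type replicate 2, with the same sign and no overlap between the groups, numbered 1722 (29.7%), 799 higher (13.8%) and 923 lower (15.9%). Those 1722 are called robust below. Among them 15 rose and 122 fell by more than 2-fold (0.259% and 2.11%), and their median difference was 0.34 for the higher and -0.48 for the lower genes. In the 6 libraries fitted alone the calls came to 1277 (22.1%), 549 higher (9.48%) and 728 lower (12.6%).

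**Figure D1:**
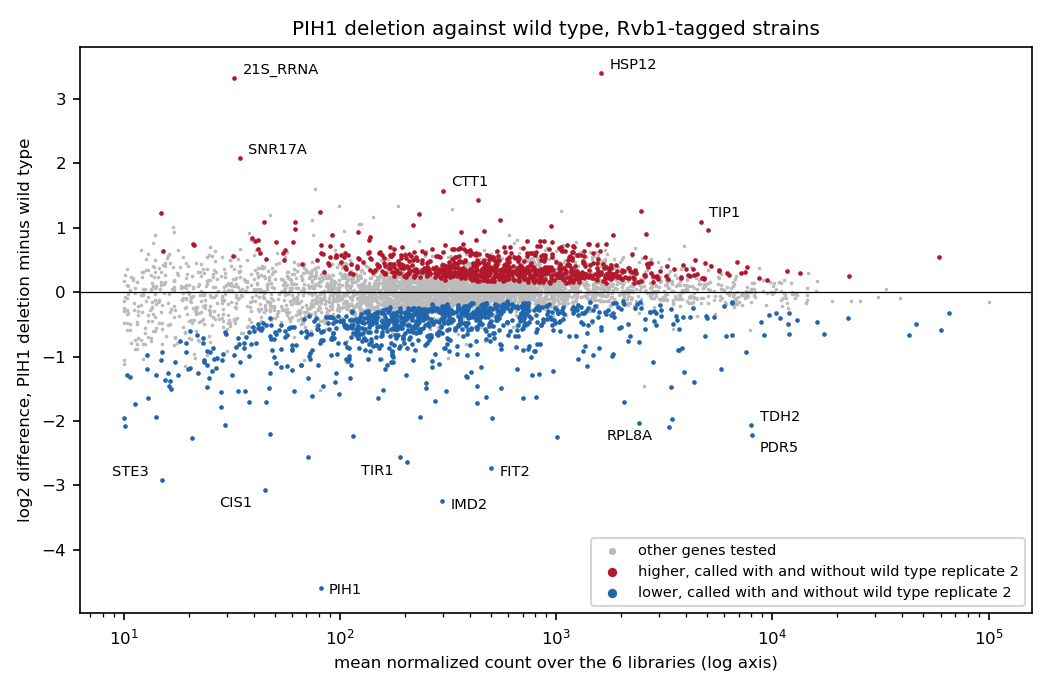
Each point is 1 of the 5791 genes tested, with its mean normalized count over the 6 libraries on a log axis and its log2 difference, PIH1 deletion minus wild type, on the vertical axis. The 923 robust lower genes (blue) reach -4.59 (PIH1) and extend further from 0 than most of the 799 robust higher genes (red), whose largest value is 3.41 (HSP12).

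The deleted gene was nearly silent in the libraries labelled PIH1 deletion. PIH1 (YHR034C, sacCer3 chromosome VIII, 176965 to 177999) had 3, 6 and 9 normalized counts there, against 162, 162 and 146 in wild type, wild type replicate 2 included. The groups do not overlap. PIH1 passed the filter only through wild type, so its difference of -4.59 ± 0.31 is a description. The genes on either side of PIH1 both rose. YHR033W (chromosome VIII, 175548 to 176819) had 270, 321 and 295 counts in the deletion and 138, 158 and 131 in wild type, a difference of 1.05 ± 0.13 (adjusted p = 1.6e-05). NEL1 (chromosome VIII, 178219 to 180111), a relative of the COPII coat protein Sec23, rose by 0.73 ± 0.15 (adjusted p = 0.0015).

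Among the other R2TP genes, RVB1, the tagged one, fell. It measured 705, 676 and 591 in the PIH1 deletion and 925, 1031 and 969 in wild type, with no overlap (-0.57 ± 0.08, adjusted p = 6.6e-05). RVB2 had 981, 1111 and 1038 counts in the deletion and 915, 948 and 886 in wild type (0.19 ± 0.07, adjusted p = 0.044). That call ended without wild type replicate 1 or 3, or without PIH1 deletion replicate 2 or 3. TAH1 ranged from 138 to 180 in the deletion and from 156 to 185 in wild type, so the groups overlap (-0.15 ± 0.15, adjusted p = 0.45). The values of the HSP90 genes depended on wild type replicate 2. HSC82, the constitutive HSP90, had 17338, 15422 and 15584 counts in the deletion and 14696, 10513 and 14597 in wild type (0.30 ± 0.10, adjusted p = 0.024), and its call ended when PIH1 deletion replicate 1 was left out or, at 0.14 (adjusted p = 0.083), wild type replicate 2. HSP82, the inducible one, had 1867, 1832 and 2035 counts in the deletion and 3186, 699 and 3177 in wild type. The low value is that of wild type replicate 2, and the difference of -0.01 ± 0.36 (adjusted p = 0.99) became -0.74 without it (adjusted p = 1.2e-06).

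Genes of RNA polymerase II, a known client of R2TP, rose. Of 19 genes for RNA polymerase II subunits and assembly factors, 13 were higher and 0 lower, 10 of them robust, and the median difference was 0.26, against 0.01 over all genes tested, of which 19.4% were higher. The count was 15 without wild type replicate 2, 8 without wild type replicate 1, and 7 in the 6 libraries alone. RPO21, the largest subunit, had 2871, 2674 and 2886 counts in the deletion and 2193, 2527 and 2305 in wild type (0.27 ± 0.06, adjusted p = 0.0017). RPB9 rose by 0.46 ± 0.07 (adjusted p = 6.1e-05), and GPN3, a GTPase that takes part in the nuclear import of the polymerase, by 0.67 ± 0.11 (adjusted p = 0.00027). Of the 9 PIKK genes and their TTT and ASTRA assembly partners, 3 were higher and 0 lower, a count near the 19.4% over all genes. It was 1 without wild type replicate 3, and 2 without wild type replicate 1 or any of the PIH1 deletion libraries. TRA1, the PIKK-related subunit of the SAGA and NuA4 acetyltransferases, had 1056, 1149 and 1139 counts in the deletion and 580, 730 and 631 in wild type. The groups stand well apart, and TRA1 rose by 0.79 ± 0.08 (adjusted p = 1.9e-06). TOR1, the growth-regulating kinase, rose by 0.25 ± 0.08 (adjusted p = 0.017), a call that was lost without wild type replicate 1 or 3 or without PIH1 deletion replicate 3. ASA1 rose by 0.26 ± 0.08 (adjusted p = 0.022), lost without wild type replicate 3 or PIH1 deletion replicate 1 or 2.

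For the box C/D particle, 2 of 7 genes were called higher and 0 lower (median 0.27), against 19.4% higher over all genes. Without wild type replicate 2, 6 of 7 were higher (median 0.47), against 23.7%. The count of 2 was 1 without wild type replicate 1 or 3 or PIH1 deletion replicate 1 or 2. RSA1, which scaffolds box C/D assembly with R2TP, was the robust one, with 433, 407 and 367 counts in the deletion and 225, 342 and 207 in wild type (0.67 ± 0.14, adjusted p = 0.0014). NOP58, the core protein that Pih1 is known to bind, had 3502, 3047 and 3115 counts in the deletion and 2387, 3711 and 2327 in wild type. Its groups overlap through wild type replicate 2 alone (0.23 ± 0.13, adjusted p = 0.16), and without that library the difference was 0.45 (adjusted p = 3.5e-05). NOP1, the methyltransferase, was at 0.34 ± 0.12 (adjusted p = 0.030) with and 0.54 (adjusted p = 4e-06) without it. The NOP1 call was lost without wild type replicate 1 or 3, and without PIH1 deletion replicate 1 or 2. In the box H/ACA particle, which guides pseudouridine formation, 2 of 6 genes were higher, against 19.4% over all genes. Without wild type replicate 2, 6 of 6 were higher. The count of 2 was 1 without wild type replicate 1 or 3 or PIH1 deletion replicate 1 or 3, and 0 in the 6 libraries alone. The INO80 and SWR1 genes had 3 higher and 0 lower of 11, and 2 higher and 2 lower of 11, with medians of 0.06 and 0.02. These counts are near the 19.4% higher and 18.8% lower over all genes, and that of INO80 was 1 without wild type replicate 1 or PIH1 deletion replicate 1 and in the 6 libraries alone. VPS72 and YAF9 of SWR1 rose by 0.38 ± 0.07 (adjusted p = 0.00033) and 0.41 ± 0.10 (adjusted p = 0.0058).

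The iron uptake genes fell in the PIH1 deletion. These genes are switched on by the factors Aft1 and Aft2 when iron is short. In the list of 7 siderophore genes, whose products hold and import iron bound to siderophores, 7 were called lower, against 18.8% over all genes. Of the 7, 6 were robust, with a list median of -1.29 (-1.34 without wild type replicate 2). FIT2 (chromosome XV, 1059531 to 1059992) and FIT3 (chromosome XV, 1060441 to 1061055) encode neighbouring cell wall mannoproteins that retain siderophores. The stretches upstream of their start codons hold the core TGCACCC of the Aft1 binding site, and are shown because these were the deepest falls of the list. Capitals mark that core on either strand. Both are RefSeq sequence of assembly R64 (sacCer3), 5′ to 3′ on the gene's strand, and cover the 200 bases that end 100 bases before the start codon, for FIT2 chrXV:1059231-1059430 on the plus strand and for FIT3 chrXV:1061156-1061355 on the minus strand.
FIT2: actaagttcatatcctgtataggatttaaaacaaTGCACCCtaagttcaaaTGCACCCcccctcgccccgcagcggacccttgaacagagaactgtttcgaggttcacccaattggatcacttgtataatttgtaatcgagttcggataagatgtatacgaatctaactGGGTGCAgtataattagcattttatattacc
FIT3: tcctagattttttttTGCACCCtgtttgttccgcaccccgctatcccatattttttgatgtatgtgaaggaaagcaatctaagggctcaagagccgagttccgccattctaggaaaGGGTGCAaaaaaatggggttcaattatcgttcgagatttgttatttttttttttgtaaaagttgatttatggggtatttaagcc
TGCACCC, searched on both strands in the 300 bases before the start codon, was found for 6 of 7 siderophore genes (85.7%), for 8 of 13 genes of reductive uptake (61.5%), and for 75 of 5543 protein-coding genes tested (1.35%). It lay before 3.09% of robust lower and 0.637% of robust higher protein-coding genes.

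FIT2 measured 142, 141 and 109 in the PIH1 deletion, against 986, 778 and 849 in wild type, a difference of -2.73 ± 0.16 (adjusted p = 1.8e-09). FIT3 measured 337, 355 and 359 in the deletion and 1780, 1594 and 1654 in wild type, a difference of -2.25 ± 0.08 (adjusted p = 3.9e-12). Neither pair of groups comes near to overlap, and wild type replicate 2 lies with its own group. FIT1, the third mannoprotein, had 48, 55 and 68 counts in the deletion and 78, 78 and 69 in wild type (-0.40 ± 0.15, adjusted p = 0.039). Its call was lost without wild type replicate 1 or 2 and without PIH1 deletion replicate 1 or 2. The 4 siderophore transporters all fell. ARN2 measured 219, 237 and 230 in the deletion and 573, 745 and 585 in wild type (-1.46 ± 0.10, adjusted p = 1.2e-08). ENB1, for enterobactin, fell by 1.29 ± 0.10 (adjusted p = 3.4e-08), ARN1 by 1.16 ± 0.08 (adjusted p = 1e-08) and SIT1 by 0.83 ± 0.11 (adjusted p = 2.6e-05).

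Reductive iron uptake fell less. Of its 13 genes, 10 were called lower and 0 higher, 9 of them robust (median -0.42), against 18.8% lower over all genes. FET3, the multicopper oxidase, had 3624, 3945 and 3773 counts in the deletion and 5917, 6168 and 6015 in wild type (-0.68 ± 0.06, adjusted p = 4.5e-07), and its partner permease FTR1 fell by 0.57 ± 0.06 (adjusted p = 5.3e-06). ATX1 and CCC2, which hand copper to Fet3, fell by 1.04 ± 0.13 (adjusted p = 1.8e-05) and 1.08 ± 0.12 (adjusted p = 2.9e-06). The surface reductase FRE1 fell by 0.69 ± 0.14 (adjusted p = 0.0012), whereas FRE3 at -0.26 and FRE5 at -0.35 missed the threshold (adjusted p = 0.067 and 0.16). TIS11, a protein that speeds the decay of mRNAs for iron-using proteins, had 61, 58 and 45 counts in the deletion, against 345, 282 and 346 in wild type (-2.55 ± 0.14, adjusted p = 8.8e-10). HMX1, a heme oxygenase, and SMF3, a vacuolar iron exporter, fell by 0.65 ± 0.12 (adjusted p = 0.00071) and 0.58 ± 0.07 (adjusted p = 1.1e-05).

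**Figure D2:**
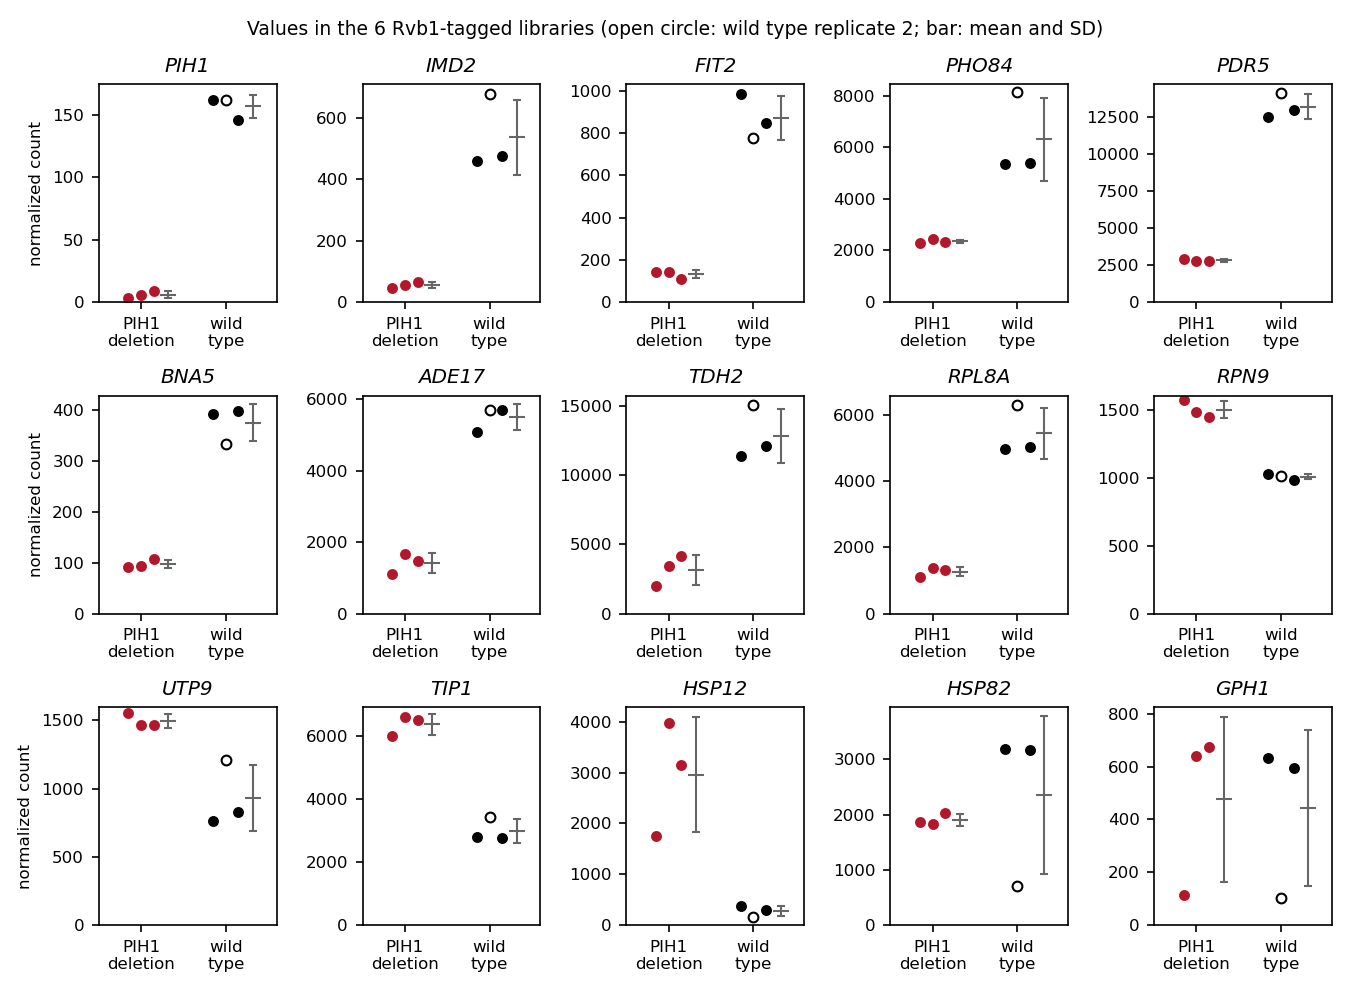
Normalized counts of 15 genes in each of the 6 Rvb1-tagged libraries, PIH1 deletion (red) left of wild type (black), with wild type replicate 2 as an open circle and the mean and SD of the 3 replicates as a bar. FIT2, PDR5, BNA5 and RPL8A separate completely, while for HSP82 wild type replicate 2 (699) lies far below the other wild type libraries (3186 and 3177).

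Genes of multidrug resistance gave some of the most precise falls. PDR5 (YOR153W, chromosome XV, 619840 to 624375), the main drug efflux pump of the plasma membrane, had 2934, 2782 and 2762 counts in the PIH1 deletion, against 12547, 14151 and 12976 in wild type. The groups are far apart and the difference was -2.22 ± 0.08 (adjusted p = 3.3e-12). Its close relative PDR15 had 191, 202 and 213 in the deletion and 926, 560 and 947 in wild type (-1.96 ± 0.16, adjusted p = 8.8e-08). YOR1 fell by 0.45 ± 0.08 (adjusted p = 0.00053), and the regulator PDR3 by 0.39 ± 0.07 (adjusted p = 0.00053). The other regulator PDR1 had 569, 521 and 532 counts in the deletion and 475, 493 and 465 in wild type (0.18 ± 0.05, adjusted p = 0.016), a call lost without wild type replicate 3 or PIH1 deletion replicate 1. Over all 13 genes of the list, 7 were lower and 4 higher, against 18.8% and 19.4% over all genes. Of the 7 and 4, 7 and 1 were robust. The higher ones were 1 or 2 with any 1 library left out, and 0 in the 6 libraries alone. CIS1 (YLR346C, chromosome XII, 822287 to 822592), a gene named for sensitivity to the toxin citrinin, had 9, 12 and 6 counts in the deletion and 84, 78 and 80 in wild type. CIS1 passed the filter only through wild type, so its difference of -3.07 ± 0.26 is a description.

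Many phosphate genes fell. Of 24, 12 were lower, all 12 of them robust, and 3 were higher, 2 of these robust (median -0.36), against 18.8% lower and 19.4% higher over all genes. The 12 were 11 or 12 with any 1 library left out, while the 3 became 1 without wild type replicate 1 or 3 or PIH1 deletion replicate 1. By role, the lower genes were 3 of 4 acid phosphatases, 1 of 2 other phosphatases, 1 of 6 transporters, 5 of 5 polyphosphate genes and 2 of 7 regulators, and the higher ones were transporters. The acid phosphatase PHO5 and the high-affinity transporter PHO84 are classic targets of the factor Pho4, which recognises CACGTG. The stretches upstream of PHO5 and of its relative PHO12 are shown because each holds that core, in capitals, before a gene that fell. They are given as above, for PHO5 chrII:431052-431251 on the minus strand and for PHO12 chrVIII:551799-551998 on the plus strand.
PHO5: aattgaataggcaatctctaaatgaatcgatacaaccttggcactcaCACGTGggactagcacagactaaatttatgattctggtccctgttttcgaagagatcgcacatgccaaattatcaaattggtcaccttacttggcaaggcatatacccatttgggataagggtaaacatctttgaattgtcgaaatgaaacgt
PHO12: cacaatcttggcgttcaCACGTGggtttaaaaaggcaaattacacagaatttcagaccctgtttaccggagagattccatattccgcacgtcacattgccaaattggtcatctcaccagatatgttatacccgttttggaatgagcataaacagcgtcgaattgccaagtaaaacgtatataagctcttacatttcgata
CACGTG reads the same on both strands and was found before 9 of the 24 phosphate genes (37.5%) and before 198 of the 5543 protein-coding genes (3.57%). It lay before 4.53% of robust lower and 4.33% of robust higher protein-coding genes.

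PHO5 had 227, 224 and 220 counts in the PIH1 deletion, against 528, 1078 and 578 in wild type, where replicate 2 is the high one (-1.62 ± 0.17, adjusted p = 2e-06). PHO12 had 16, 22 and 21 in the deletion and 115, 160 and 94 in wild type (-2.56 ± 0.23, adjusted p = 3.7e-07). Its coding sequence matches that of PHO11 at 99.7% of bases, so the reads of these paralogs cannot be assigned with certainty. PHO84 had 2273, 2422 and 2340 in the deletion and 5362, 8133 and 5394 in wild type, with no overlap (-1.40 ± 0.11, adjusted p = 8e-08). All 5 genes of the VTC complex, which makes polyphosphate in the vacuole, fell, by between 0.32 and 1.05 on the log2 scale, VTC3 the most at -1.05 ± 0.08 (adjusted p = 3.4e-08). PHO81, the inhibitor of the Pho80-Pho85 kinase, fell by 0.53 ± 0.07 (adjusted p = 3.9e-05). PHM6, a phosphate-regulated gene, had 15, 22 and 11 counts in the deletion and 63, 118 and 56 in wild type (-2.21 ± 0.27, adjusted p = 1.1e-05). Other phosphate transporters moved the other way, PHO91 by 0.36 ± 0.07 (adjusted p = 0.0011) and PHO87 by 0.33 ± 0.11 (adjusted p = 0.026). The PHO87 call was lost without wild type replicate 1 or 3 or PIH1 deletion replicate 1.

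Purine synthesis fell across almost the whole pathway. Of 10 genes that make IMP and AMP, 9 were lower, all robust, and 0 higher, against 18.8% lower over all genes. The median of the 10 was -0.88 (-0.76 without wild type replicate 2). ADE17, whose enzyme performs the last steps to IMP, had 1114, 1669 and 1472 counts in the PIH1 deletion, against 5068, 5688 and 5703 in wild type (-1.97 ± 0.17, adjusted p = 1.8e-07). Its paralog ADE16 had 2108, 2341 and 2360 in the deletion and 2328, 1961 and 2396 in wild type, which overlap (0.03 ± 0.07, adjusted p = 0.76). The other called genes ran from ADE12 at -0.99 ± 0.10 (adjusted p = 1.4e-06) and ADE1 at -0.97 ± 0.12 (adjusted p = 1.6e-05) to ADE8 at -0.25 ± 0.08 (adjusted p = 0.019), and the ADE8 call ended without PIH1 deletion replicate 2. SHM2 and MTD1, which supply one-carbon units, fell by 1.19 ± 0.08 (adjusted p = 1.3e-08) and 0.91 ± 0.09 (adjusted p = 7.8e-07). BAS1, an activator of the purine genes, moved the other way, with 655, 606 and 662 counts in the deletion and 326, 591 and 364 in wild type (0.63 ± 0.14, adjusted p = 0.0027), and missed the threshold in the 6 libraries alone (adjusted p = 0.068). IMD2 (YHR216W, chromosome VIII, 554396 to 555967), a gene for IMP dehydrogenase, the entry to guanine nucleotides, had 46, 56 and 64 counts in the deletion and 458, 677 and 475 in wild type. No deletion library came near a wild type one, and the difference was -3.24 ± 0.13 (adjusted p = 1.1e-11). Its paralogs IMD3 and IMD4, with 88.9% and 79% of bases identical, missed the threshold at -0.27 ± 0.11 (adjusted p = 0.074) and -0.11 ± 0.13 (adjusted p = 0.54). IMD2 lies on the same chromosome arm as PHO12 (552099 to 553502).

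Of 9 genes of NAD synthesis, 5 were lower and 1 higher, against 18.8% and 19.4% over all genes. BNA2, tryptophan dioxygenase, the first step, had 3, 9 and 9 counts in the PIH1 deletion, against 35, 32 and 36 in wild type. BNA2 is counted among the 5 but passed the filter only through wild type, so its difference of -2.26 ± 0.36 is a description. BNA5, kynureninase, had 91, 93 and 106 in the deletion and 392, 332 and 398 in wild type (-1.94 ± 0.09, adjusted p = 3e-11). BNA4 had 71, 68 and 76 in the deletion and 232, 241 and 208 in wild type (-1.65 ± 0.09, adjusted p = 1.4e-09). For BNA5 and BNA4 the groups do not overlap. BNA1 and BNA6 fell by 1.49 ± 0.11 (adjusted p = 5.2e-08) and 0.72 ± 0.09 (adjusted p = 1.2e-05), and NRT1, a nicotinamide riboside transporter, by 1.42 ± 0.13 (adjusted p = 3e-07). BNA3, an aminotransferase, had 431, 532 and 517 counts in the deletion and 538, 420 and 555 in wild type, which overlap (-0.03 ± 0.12, adjusted p = 0.89). Genes of the later and salvage steps, QNS1, NPT1 and NMA1, lay at -0.12, -0.01 and 0.03 (adjusted p = 0.095, 0.86 and 0.70). Over the 14 genes of NAD metabolism 7 were lower and 1 higher, the higher one being NMA2 at 0.32 ± 0.08 (adjusted p = 0.0074).

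Glycolytic genes fell. Of 17, 13 were lower, 12 of them robust, and 0 higher (median -0.58), against 18.8% lower over all genes. TDH2, a glyceraldehyde-3-phosphate dehydrogenase, had 1984, 3395 and 4117 counts in the PIH1 deletion, against 11335, 15034 and 12079 in wild type (-2.07 ± 0.19, adjusted p = 3.8e-07). TDH3, 95.8% identical in coding bases, had 89499, 98141 and 97831 in the deletion and 102544, 110134 and 103353 in wild type (-0.15 ± 0.09, adjusted p = 0.22). The hexokinases HXK2 and HXK1 fell by 0.94 ± 0.07 (adjusted p = 3.4e-08) and 2.04 ± 0.36 (adjusted p = 0.00035). ADH1, the main fermentative alcohol dehydrogenase, had 28217, 35879 and 35400 in the deletion and 50936, 55487 and 51121 in wild type (-0.67 ± 0.10, adjusted p = 0.00011). PIH1 deletion replicate 1 was the low library in this list, with a mean deviation of -0.81 from the 6-library mean, against -0.20 and -0.11 in the other deletion libraries. Wild type lay at 0.45, 0.19 and 0.49. Without PIH1 deletion replicate 1 the list still had 11 lower and 0 higher, with a median of -0.44. TDH1 shows the library most plainly, with 153, 2891 and 2756 counts in the deletion and 3693, 1726 and 4006 in wild type (-1.46 ± 0.86, adjusted p = 0.19).

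Genes for protein synthesis inside mitochondria fell almost as a block. The 3 lists of this paragraph were drawn up after the values had been seen. Of 71 mitochondrial ribosomal proteins, 59 were lower, 58 of them robust, and 0 higher, against 18.8% lower over all genes. Their median was -0.46, and -0.50 without wild type replicate 2, when 63 were lower. Over all settings tried, between 54 and 64 were lower and 0 higher. RSM19 had 125, 92 and 114 counts in the PIH1 deletion, against 254, 190 and 263 in wild type (-1.08 ± 0.12, adjusted p = 6.1e-06). MRPL31 had 180, 195 and 182 in the deletion and 397, 321 and 377 in wild type (-0.97 ± 0.09, adjusted p = 3.2e-07). In both, wild type replicate 2 was the lowest wild type library and still above every deletion library. Of 19 genes for mitochondrial translation factors and tRNA synthetases, 18 were lower, among them TUF1, the elongation factor, at -0.76 ± 0.07 (adjusted p = 9.4e-07). Of 25 genes that assemble cytochrome oxidase, 17 were lower and 1 higher. The copper chaperone COX17 had 134, 158 and 134 counts in the deletion and 311, 264 and 311 in wild type (-1.05 ± 0.09, adjusted p = 1.8e-07).

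The nuclear genes for the respiratory chain itself did not share this fall. Of 33 subunits, 13 were higher, 10 of them robust, and 1 lower, against 19.4% and 18.8% over all genes. Their median was 0.15 (0.07 without wild type replicate 2). The higher ones numbered 9 without PIH1 deletion replicate 2, 16 without wild type replicate 1 and 6 in the 6 libraries alone. ATP5, of the ATP synthase, had 1360, 1443 and 1384 counts in the PIH1 deletion, against 1129, 968 and 1066 in wild type (0.41 ± 0.06, adjusted p = 0.00012), and COX7 of cytochrome oxidase rose by 0.54 ± 0.09 (adjusted p = 0.00024). The lower one was CYC1, cytochrome c, at -0.54 ± 0.11 (adjusted p = 0.0017). Respiratory subunits encoded on mitochondrial DNA were below the filter and were not tested.

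Cytosolic ribosomal protein genes changed 1 paralog at a time. Of 138 genes, 8 were higher and 14 lower, with a median of -0.04 (0.04 without wild type replicate 2, when 19 were higher and 11 lower), both counts below the 19.4% and 18.8% over all genes. Without wild type replicate 3, 3 were higher and 19 lower, and without wild type replicate 1 or PIH1 deletion replicate 2 or 3, 4 or 5 were higher. In 59 pairs both paralogs were tested. In 15 of these pairs 1 paralog was robust, and in 0 pairs both were. RPL8A (YHL033C, chromosome VIII, 35255 to 36025) had 1106, 1372 and 1306 counts in the PIH1 deletion, against 4961, 6299 and 5025 in wild type (-2.10 ± 0.09, adjusted p = 2.9e-11). RPL8B had 6275, 6354 and 6392 in the deletion and 5528, 7235 and 5420 in wild type, which overlap (0.08 ± 0.10, adjusted p = 0.57), and was at 0.21 without wild type replicate 2 (adjusted p = 0.036). The coding sequences are of equal length and match at 95.1% of bases, and RPL8A made up 16.6% of the counts of the pair in the deletion and 47.3% in wild type. RPL9B had 908, 969 and 1000 in the deletion and 3225, 3184 and 3016 in wild type (-1.71 ± 0.06, adjusted p = 3.9e-12). RPL7B fell by 1.72 ± 0.13 (adjusted p = 3.3e-08), RPS22B by 1.14 ± 0.07 (adjusted p = 7.3e-09) and RPL22B by 1.20 ± 0.09 (adjusted p = 3.4e-08). Reads from near-identical paralogs may have been split between them, in a way that the sources used here do not state.

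Ribosome assembly genes stood higher in the PIH1 deletion, and how many passed depended on wild type replicate 2. Of 42 genes of the small subunit processome, which cuts and folds the precursor of 18S ribosomal RNA, 34 were higher and 0 lower (median 0.54), against 19.4% higher over all genes. Of 58 factors for 60S assembly, 45 were higher and 0 lower (median 0.50). Of these, 15 and 10 were robust, against 13.8% robust and higher over all genes, so the 10 of 58 are near that share. The mean deviation of the processome list was 0.36, 0.21 and 0.20 in the deletion, against -0.51, 0.25 and -0.50 in wild type. Without wild type replicate 2, 41 of 42 and 57 of 58 were higher (medians 0.78 and 0.78). With it, but without wild type replicate 1, the counts were 15 and 12, without wild type replicate 3 they were 15 and 11, and without PIH1 deletion replicate 1 they were 19 and 17. In the 6 libraries fitted alone they were 10 and 2, against 9.48% higher over all genes, and the 2 of 58 lie below that share.

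UTP9, a processome subunit, had 1551, 1468 and 1465 counts in the PIH1 deletion, against 764, 1210 and 826 in wild type. All deletion libraries exceed wild type replicate 2, the highest of its group, and the difference was 0.71 ± 0.13 (adjusted p = 0.0004). RRP7 rose by 0.54 ± 0.08 (adjusted p = 5.8e-05), and REA1, the dynein-like ATPase that strips factors from the large subunit, by 0.75 ± 0.15 (adjusted p = 0.00089). The upstream stretch of UTP9 is shown because it holds GATGAG, the core of the PAC element that is common before ribosome assembly genes, in capitals. It lies at chrVIII:491631-491830 on the plus strand.
UTP9: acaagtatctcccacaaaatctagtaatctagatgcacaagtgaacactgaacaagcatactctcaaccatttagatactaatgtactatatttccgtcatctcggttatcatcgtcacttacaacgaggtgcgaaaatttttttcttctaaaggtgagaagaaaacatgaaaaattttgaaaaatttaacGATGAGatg
GATGAG was found on either strand before 36 of 42 processome genes (85.7%), 52 of 58 genes for 60S assembly (89.7%) and 1037 of 5543 protein-coding genes (18.7%). It lay before 24.2% of robust higher and 11.3% of robust lower protein-coding genes.
RNA polymerases I and III, which transcribe ribosomal and transfer RNA, had 11 of 15 and 8 of 10 genes higher, and 1 and 0 lower. Over all genes 19.4% were higher and 18.8% lower. Of the 11 and 8 higher genes, 5 and 4 were robust, against 13.8% over all genes. The counts of higher genes were 5 and 4 without wild type replicate 1. They were 3 and 2 in the 6 libraries alone, against 9.48% over all genes. RPA190, the largest subunit of polymerase I, had 2856, 2544 and 2475 counts in the deletion and 1403, 2712 and 1477 in wild type (0.56 ± 0.16, adjusted p = 0.013). Wild type replicate 2 overlaps the deletion, the difference was 0.86 without it, and the call was lost without wild type replicate 1 or 3 or PIH1 deletion replicate 1.

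**Figure D3:**
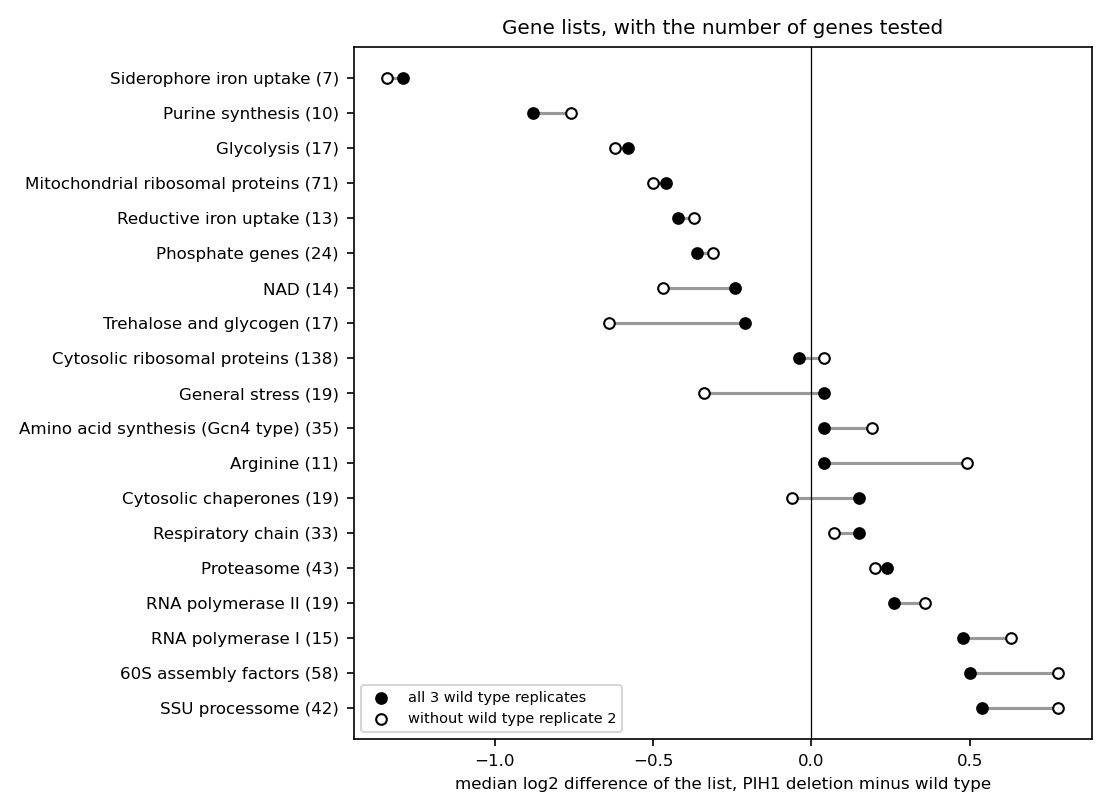
Median log2 difference, PIH1 deletion minus wild type, of 19 gene lists with all 3 wild type replicates (filled) and without wild type replicate 2 (open); the number of genes tested stands in brackets. The iron, purine and mitochondrial ribosome lists move little, while the processome list is at 0.54 with and 0.78 without that library, and the trehalose and glycogen list at -0.21 and -0.64.

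Proteasome genes rose without such dependence. Of 43 genes, 33 were higher and 3 lower, against 19.4% and 18.8% over all genes. The robust ones were 31 and 3, and the median of the 43 was 0.24 (0.20 without wild type replicate 2). In the 6 libraries alone 21 were higher and 2 lower. All 14 subunits of the 20S core were called higher, as were 9 of 10 in the base and 7 of 9 in the lid of the 19S particle. RPN9 (YDR427W, chromosome IV, 1322205 to 1323386), a lid subunit, had 1571, 1485 and 1444 counts in the PIH1 deletion, against 1025, 1010 and 985 in wild type (0.57 ± 0.06, adjusted p = 3.1e-06). PRE5 of the core had 1921, 1728 and 1858 in the deletion and 1353, 1139 and 1351 in wild type (0.52 ± 0.07, adjusted p = 3.2e-05). The assembly chaperone UMP1 rose by 0.57 ± 0.09 (adjusted p = 8.8e-05). RPN4, the activator of the proteasome genes, was one of the 3 that fell, with 692, 635 and 654 counts in the deletion and 851, 737 and 773 in wild type (-0.25 ± 0.07, adjusted p = 0.014). Its call was lost without wild type replicate 1 or PIH1 deletion replicate 2. The others were the 19S assembly chaperones RPN14 at -0.33 ± 0.07 (adjusted p = 0.0026) and HSM3 at -0.37 ± 0.10 (adjusted p = 0.0086). The stretch before RPN9 (chrIV:1321905-1322104, plus strand) is shown because it holds GGTGGCA, the core recognised by Rpn4, in capitals.
RPN9: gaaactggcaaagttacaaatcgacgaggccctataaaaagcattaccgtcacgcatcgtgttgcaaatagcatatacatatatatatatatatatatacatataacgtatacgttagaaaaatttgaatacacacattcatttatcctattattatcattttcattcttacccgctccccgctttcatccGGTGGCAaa
GGTGGCA was found on either strand before 29 of the 43 proteasome genes (67.4%) and before 156 of the 5543 protein-coding genes (2.81%). It lay before 5.22% of robust higher and 2.65% of robust lower protein-coding genes.

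HSP12 (YFL014W, chromosome VI, 107256 to 107585), a small heat shock protein that stabilises membranes, had the largest rise with all libraries (without wild type replicate 2 it was 3.06, second to 21S_RRNA at 3.56). It had 1745, 3981 and 3142 counts in the PIH1 deletion, against 366, 163 and 303 in wild type, with no overlap (3.41 ± 0.49, adjusted p = 5.5e-05). CTT1, cytosolic catalase, had 189, 608 and 576 in the deletion and 161, 83 and 184 in wild type (1.58 ± 0.41, adjusted p = 0.0062), and missed the threshold in the 6 libraries alone (adjusted p = 0.060). GAP1, the general amino acid permease, had 309, 942 and 701 in the deletion and 265, 171 and 230 in wild type (1.43 ± 0.45, adjusted p = 0.019), a call lost without PIH1 deletion replicate 2 or 3. In all 3 genes PIH1 deletion replicate 1 was the lowest deletion library. Other rises had tighter replicates. TIP1, a cell wall mannoprotein, had 5995, 6599 and 6520 in the deletion and 2794, 3426 and 2758 in wild type (1.10 ± 0.09, adjusted p = 2e-07). CCW22 had 3160, 3689 and 3591 in the deletion and 1723, 1148 and 1554 in wild type (1.26 ± 0.12, adjusted p = 8.6e-07). RGS2, which restrains the glucose-sensing G protein, and SAM3, the S-adenosylmethionine permease, rose by 1.21 ± 0.14 (adjusted p = 5.7e-06) and 1.03 ± 0.12 (adjusted p = 6.7e-06). YDR133C and YDL186W, of no stated function here, rose by 1.12 ± 0.12 (adjusted p = 3.5e-06) and 1.09 ± 0.18 (adjusted p = 0.00018). By systematic name YDR133C is the neighbour of CCW22 (YDR134C), and whether they share reads was not tested, so they may not be separate rises.

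Some of the largest rises were RNAs that normally carry no poly(A) tail, although the libraries were made from poly(A)+ RNA. The U3 small nucleolar RNA SNR17A, a box C/D RNA needed for 18S processing, had 47, 55 and 66 counts in the PIH1 deletion, against 11, 17 and 10 in wild type (2.08 ± 0.32, adjusted p = 9.9e-05). Reads of its close copy SNR17B cannot be assigned with certainty. The mitochondrial 21S ribosomal RNA (21S_RRNA) had 53, 40 and 87 in the deletion and 5, 7 and 3 in wild type. Its wild type libraries lie below the filter of 10, so it passed only through the deletion, and its difference of 3.33 ± 0.55 is a description. LSR1, the U2 spliceosomal RNA, and SCR1, of the signal recognition particle, rose by 1.25 ± 0.20 (adjusted p = 0.00014) and 1.09 ± 0.26 (adjusted p = 0.0040). Of 9 such RNAs tested 4 were higher, 21S_RRNA among them, and 1 lower, against 19.4% and 18.8% over all genes. Their median was 0.70. The lower one was TLC1, telomerase RNA, at -0.28 ± 0.07 (adjusted p = 0.0033). Of 38 small nucleolar RNAs, a list drawn up after the values had been seen, 5 were higher and 1 lower, and 10 and 1 without wild type replicate 2. The count of 5 is a smaller share than the 19.4% over all genes. Among them SNR57 rose by 1.22 ± 0.37 (adjusted p = 0.015), a call lost without wild type replicate 1 or PIH1 deletion replicate 2. Whether these values reflect RNA levels or the poly(A) selection was not tested.

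By4741 is a MATa strain, and the a-cell genes were expressed in both groups, with STE2, the α-factor receptor, at 6474, 6387 and 6202 counts in the PIH1 deletion and 4640, 5451 and 4945 in wild type (0.35 ± 0.06, adjusted p = 0.00027). STE3, the receptor of α cells, had 26, 27 and 28 counts in wild type and 1, 4 and 4 in the deletion. STE3 passed the filter only through wild type, so its difference of -2.93 ± 0.38 is a description. Of the other a-cell genes, ASG7 had 30, 37 and 42 in the deletion and 129, 95 and 115 in wild type (-1.61 ± 0.16, adjusted p = 1.4e-06), while MFA2, the a-factor gene, rose by 0.45 ± 0.07 (adjusted p = 5.5e-05). TIR1, a cold-shock mannoprotein of the cell wall, had 60, 51 and 56 in the deletion and 332, 378 and 349 in wild type (-2.64 ± 0.14, adjusted p = 4.2e-10). NFG1, a regulator of filamentous growth, had 50, 43 and 28 in the deletion and 176, 193 and 198 in wild type (-2.24 ± 0.16, adjusted p = 1.8e-08). YOL163W had 4, 2 and 4 in the deletion and 16, 14 and 21 in wild type, and passed the filter only through wild type, so its difference is a description.

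Among 12 cyclin genes 7 were lower and 1 higher, 6 and 0 of them robust, against 18.8% lower and 15.9% robust and lower over all genes. CLB1, a mitotic cyclin, had 441, 520 and 559 counts in the PIH1 deletion, against 1003, 970 and 1084 in wild type (-1.01 ± 0.09, adjusted p = 3e-07), and CLB2 fell by 0.44 ± 0.09 (adjusted p = 0.0016). The G1 cyclin CLN1 fell by 0.55 ± 0.09 (adjusted p = 0.00011). In a bulk culture fewer cells at a stage of the cycle and less RNA per cell cannot be told apart.

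Stress, reserve carbohydrate and arginine genes rested on wild type replicate 2. GPH1, glycogen phosphorylase, had 114, 639 and 674 counts in the PIH1 deletion, against 631, 103 and 596 in wild type. PIH1 deletion replicate 1 and wild type replicate 2 are the low libraries, and the difference of 0.11 ± 0.68 (adjusted p = 0.92) became -0.74 without wild type replicate 2 (adjusted p = 0.31). SOL4, a sugar lactonase relative, had 56, 188 and 186 in the deletion and 164, 8 and 149 in wild type, at 1.06 ± 0.79 with and -0.32 without that library. RTC3 and HSP42, a small heat shock protein, were at 0.24 and 0.81 with that library and at -0.78 and -0.06 without it. COX26, of cytochrome oxidase, was at 0.91 with and -0.01 without it. TSL1, of trehalose synthesis, had 617, 829 and 905 in the deletion and 2400, 343 and 2259 in wild type (-0.67 ± 0.48, adjusted p = 0.28), and -1.59 without replicate 2 (adjusted p = 5.6e-07). The trehalose and glycogen list went along, with 3 of 17 lower with all libraries (median -0.21), near the 18.8% over all genes. Without wild type replicate 2, 13 of 17 were lower (median -0.64), against 22.9%, and 0 were higher both times. The mean deviation of this list was -0.58, 0.03 and 0.15 in the deletion and 0.57, -0.70 and 0.52 in wild type. DDR2 and CYC7 stayed positive, at 1.34 and 1.12 with and 0.45 and 0.36 without that library, and were not called.

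For BSC1 and the list of arginine genes wild type replicate 2 was the high library, with a mean deviation of 0.68 for that list. BSC1 had 95, 73 and 66 counts in the PIH1 deletion and 35, 224 and 45 in wild type, at 0.12 ± 0.52 (adjusted p = 0.89) with and 0.94 (adjusted p = 0.039) without that library. Of 11 arginine genes 1 was higher and 2 lower (median 0.04), against 19.4% higher and 18.8% lower over all genes. Without wild type replicate 2, 8 were higher and 2 lower (median 0.49), against 23.7% and 22.9%. The 2 lower ones were the breakdown genes CAR1 and CAR2 at -0.89 ± 0.16 (adjusted p = 0.00038) and -1.15 ± 0.24 (adjusted p = 0.0016). For 20 listed general stress genes, 19 tested, 4 were higher and 4 lower, near the shares over all genes. Without wild type replicate 2, 3 were higher and 8 lower, against 23.7% and 22.9% over all genes. In the 6 libraries alone 1 was higher and 0 lower.

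**Figure D4:**
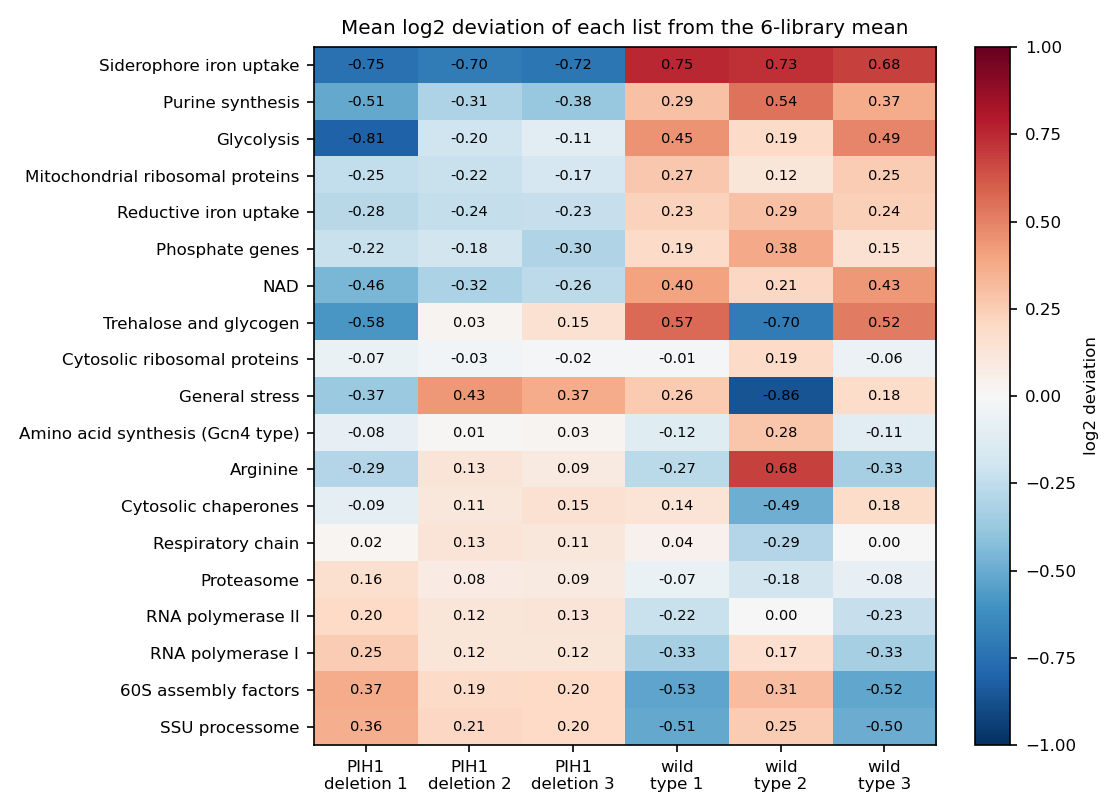
Mean log2 deviation of each gene list from its 6-library mean, with the lists down the page and the libraries across it, PIH1 deletion left of wild type. Siderophore genes are low in all 3 deletion libraries (-0.75 to -0.70) and high in all of wild type (0.68 to 0.75), whereas for general stress genes wild type replicate 2 stands alone at -0.86.

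The same deletion was made in a strain with tagged Rvb2, whose 6 libraries are not shared with this comparison. There 4036 genes were called (69.7%), 2034 higher (35.1%) and 2002 lower (34.6%), on the same 5791 genes. Of the 799 robust higher genes 515 were also higher there (64.5% of the 799, and 25.3% of the 2034), and 105 were lower (13.1%). Of the 923 robust lower genes 633 were also lower there (68.6% of the 923, and 31.6% of the 2002), and 87 were higher (9.43%). The effect of the deletion differed between the tagged strains for 2913 genes (50.3%), by the interaction term of the same fit. The count was 2756 without wild type replicate 2 of the Rvb1-tagged strain. It differed by more than 2-fold for 332 upwards (5.73%) and 278 downwards (4.8%) in the Rvb2-tagged relative to the Rvb1-tagged strain. Wild type replicate 1 of the Rvb2-tagged strain carries conflicting labels and lay 0.304 log2 units from the rest of its group. How the values of that strain and the interaction stand without it was not tested. PHO12, TIR1 and BNA5 had differences of -2.41, -2.54 and -2.22 in the Rvb2-tagged strain, and the interactions were at adjusted p of 0.72, 0.68 and 0.061. That these missed the threshold does not show equal effects. PDR5 changed by -1.95 there and -2.22 here (interaction adjusted p = 0.040).

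Several groups held genes whose effect differed between the strains by the interaction term, as it did for 50.3% of all genes. With tagged Rvb2, 35.1% of all genes were higher and 34.6% lower. The siderophore list, with a median of -1.29 here, had one of -0.03 with tagged Rvb2, and the effect differed for 7 of 7 genes. FIT2 changed by -1.51 there and -2.73 here (interaction adjusted p = 0.00034), and ARN2 by 0.06 there and -1.46 here (adjusted p = 6.8e-07). The proteasome list was lower with tagged Rvb2, with 35 of 43 lower, 1 higher and a median of -0.38, and 39 of 43 differed. PRE5 changed by -0.58 there and 0.52 here (interaction adjusted p = 6.5e-07). The respiratory chain had 29 of 33 lower and 0 higher there (median -0.59), and 33 of 33 differed. Processome and 60S genes rose in both, 42 of 42 and 58 of 58 with tagged Rvb2 (medians 1.31 and 1.35), and the effect differed for 34 and 53 of them. IMD2 changed by -0.58 there and -3.24 here (interaction adjusted p = 3.4e-08). NRT1 changed by 0.40 there and -1.42 here (interaction adjusted p = 1.2e-06), and RPS22B by -0.03 there and -1.14 here (adjusted p = 8e-07). Mitochondrial ribosomal proteins fell in both, 71 of 71 with tagged Rvb2 (median -0.86), and 50 of 71 differed.

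**Figure D5:**
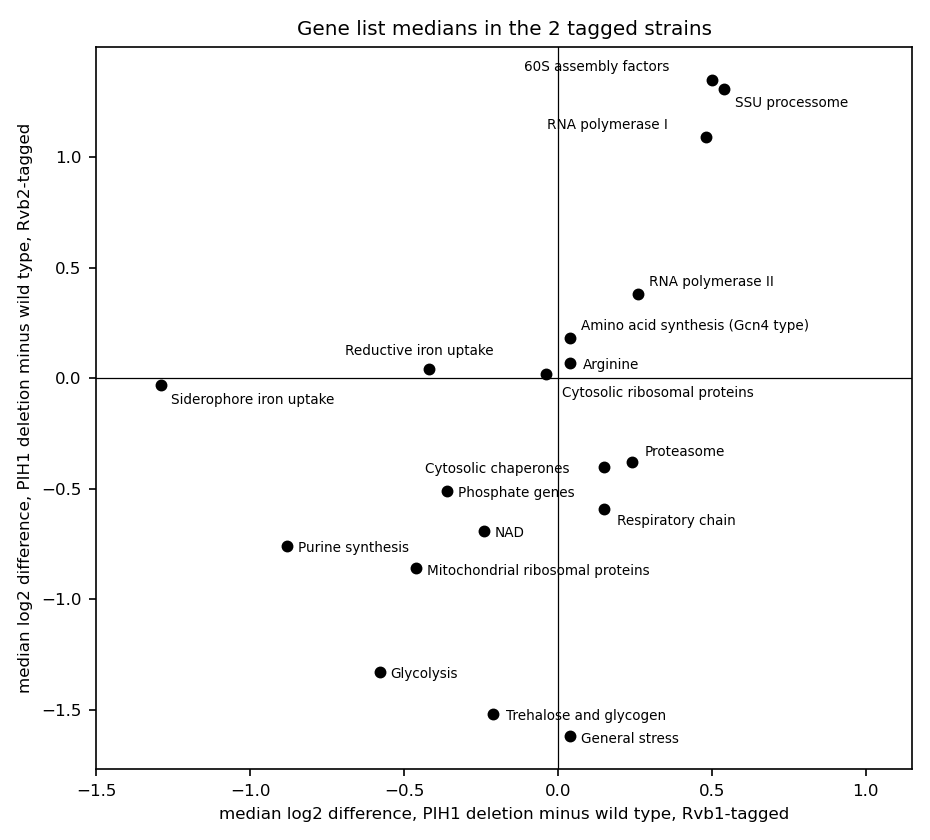
Median log2 difference, PIH1 deletion minus wild type, of 19 gene lists in the Rvb1-tagged (horizontal) and Rvb2-tagged (vertical) strains. Ribosome assembly lists lie upper right in both, purine and mitochondrial ribosome lists lower left in both, the siderophore list at -1.29 and -0.03, and the proteasome list at 0.24 and -0.38.

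The deletion of TAH1 in the Rvb1-tagged strain was compared with the same 3 wild type libraries, so its values are given beside those of PIH1 without a comparison. PDR5 changed by -2.22 after PIH1 deletion and by -2.05 (adjusted p = 6.6e-12) after TAH1 deletion, FIT3 by -2.25 and -2.04 (adjusted p = 2e-11), and CIS1 by -3.07 and -2.46. IMD2 changed by -3.24 and -0.01 (adjusted p = 0.97), RPL8A by -2.10 and 0.09 (adjusted p = 0.55), BNA5 by -1.94 and -0.16 (adjusted p = 0.22), and PHO84 by -1.40 and 1.46 (adjusted p = 1.5e-07).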

How the data were processed

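Poly(A)+ RNA was sequenced from 18 libraries, 3 for each of 6 strains. The tools were DESeq2 1.6.3 and TopHat2 2.0.3 with genome build sacCer3, per the submitters' processing notes, which name neither read counter nor annotation. The authors deposited a table of normalized counts, a signal already scaled between libraries and rounded to whole numbers, and a table of FPKM rounded to whole numbers, treated as a score and used as an alternative. Whole reads could not be recovered from the deposited values, so the raw depth is not known and no count test was run. The series calls the replicates biological, and whether cultures were grown side by side is not stated.

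From the normalized counts, log2(value + 1) was fitted with limma 3.58.1 in R 4.3.3, with 6 group means over 18 libraries, so that the spread was shared by all groups, moderated with a trend on the mean. Fold changes are on that scale, which understates the change of low genes. The test covered genes whose mean reached 10 in the 6 libraries compared, and p-values were adjusted over all 5791 by the Benjamini-Hochberg method. The fitting was tested on simulated data whose noise was independent between libraries. No simulated library stood apart as wild type replicate 2 does, so that setting was not tested. The effect of the deletion in the Rvb2-tagged strain and its difference from that in the Rvb1-tagged strain came from the same fit. A wild type library of the Rvb2-tagged strain carries conflicting labels, and its title was followed.

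The genes named were the 15 largest rises and 15 largest falls among genes called with and without wild type replicate 2, the 10 whose difference moved most without that library, the R2TP genes and the neighbours of PIH1, and members of the lists, up to 4 by smallest adjusted p or all of a list of 12 or fewer; names outside this rule were picked with their values in view, and 1 gene that it covers is not reported here. The members and lists were chosen with earlier results of these data known. Alternatives were other pseudocounts (0.5 and 5), filters (means of 1 and 50) and scalings (total sum, TMM, quantile). Others were library weights, the FPKM table, a replicate block, the 6 libraries alone, and leaving out each of these 6 libraries. Promoter and coding sequences are those of RefSeq, assembly R64 (sacCer3).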

Additional observations from a re-analysis of the deposited data

Results flagged for a closer look

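The effect of the deletion on 2913 genes differed between the Rvb2-tagged and the Rvb1-tagged strain, by the interaction term of the limma fit with Benjamini-Hochberg adjustment. No Rvb2-tagged library was left out for this count, including the wild type library with conflicting labels. The values that follow are log2 effects of the deletion, Rvb2-tagged minus Rvb1-tagged. Among the rises, the effect was smaller in the Rvb2-tagged strain for HSP12 (-2.47), 21S_RRNA (-2.43), CTT1 (-1.94), CCW22 (-1.21), SAM3 (-1.18), YDR133C (-1.16) and TIP1 (-1.14). It was larger there for SNR17A (3.17), SCR1 (1.86) and YDL186W (0.75). Among the falls, the fall was less deep, or absent, in the Rvb2-tagged strain for IMD2 (2.66), YOL163W (2.38), PHM6 (1.44), FIT2 (1.22), FIT3 (1.12), TIS11 (0.95) and PDR5 (0.28), and deeper for RPL8A (-1.01). In the Rvb1-tagged strain 21S_RRNA and YOL163W passed the filter through 1 group only, so their values are a description. The tagged genes themselves differed, RVB1 by 1.45 and RVB2 by -1.68.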

How the results depend on the processing

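The count of 2209 called genes was 1277 in the 6 libraries alone, with 549 higher, and 1594 to 2701 when 1 library was left out. Library weights gave 1687 higher. Genes higher by more than 2-fold numbered 34 with a mean of at least 1, 37 in the 6 libraries without wild type replicate 2, 39 with library weights, and 12 to 37 with 1 library left out; genes lower by more than 2-fold numbered 80 with a mean of at least 50. Other counts over all genes stayed within 1.5 times, and counts of several lists moved further, as given with each list. Same-numbered libraries did not deviate together (r of -0.283, -0.192 and 0.186), and the replicate block gave 2125 calls.

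No called gene named here changed sign. Uncalled ones did. In the 6 libraries without wild type replicate 2 the differences were SOL4 -0.317, RTC3 -0.780, COX26 -0.010, HSP42 -0.060, GPH1 -0.741, ADE16 -0.059, IMD4 0.134 and NPT1 0.012. Library weights gave RTC3 -0.488, GPH1 -0.313, ADE16 -0.036 and IMD4 0.094. Quantile normalization gave ADE16 -0.037 and NMA1 -0.004, and total-sum scaling HSP82 0.012 and NPT1 0.006. With 1 library left out, the lowest and highest differences were -0.317 and 1.781 for SOL4, -0.780 and 0.829 for RTC3, -0.010 and 1.583 for COX26, -0.060 and 1.268 for HSP42, and -0.741 and 0.952 for GPH1. They were -0.382 and 0.940 for BSC1, -0.059 and 0.085 for ADE16, -0.736 and 0.357 for HSP82, -0.236 and 0.134 for IMD4, -0.043 and 0.098 for NMA1, -0.153 and 0.067 for BNA3, and -0.057 and 0.012 for NPT1. The cause was not tested. Raw depth is not known, so the precision of low genes rests on the replicates.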

Other observations

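Of 23 ergosterol genes, 11 were lower and 3 higher, against 18.8% and 19.4% over all genes. The lower ones were 7 without wild type replicate 1 or PIH1 deletion replicate 1 or 3, and 5 in the 6 libraries alone. ERG3, a sterol desaturase, fell by 0.50 on the log2 scale and ERG6, a sterol methyltransferase, by 0.44, while HMG1, an HMG-CoA reductase, rose by 0.44. Of 15 inositol and phospholipid genes, 4 were lower and 0 higher, against 18.8% and 19.4% over all genes. OPI3, which makes phosphatidylcholine by methylation, had 226, 249 and 241 counts in the PIH1 deletion, against 640, 452 and 618 in wild type, with no overlap (-1.24). ITR1, the inositol transporter, fell by 0.49 and CHO1, phosphatidylserine synthase, by 0.51.

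Of 21 permease genes, 10 were higher and 3 lower, against 19.4% and 18.8% over all genes. Without PIH1 deletion replicate 2 or 3, 6 were higher. The ammonium permease MEP2 rose by 0.67. CIT2, the peroxisomal citrate synthase, had 508, 534 and 584 counts in the PIH1 deletion, against 317, 313 and 300 in wild type, and rose by 0.80.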
